A study of Mus musculus with 14 samples.

Results

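The aminoacyl-tRNA synthetases are the enzymes that join each amino acid to its transfer RNA (tRNA). Their mRNAs were followed in mouse hepatocellular carcinoma (HCC) cells that had lost ATP-citrate lyase (ACLY), acyl-CoA synthetase short chain family member 2 (ACSS2), both or neither. The 36 genes were taken by symbol from the 24972 symbols of the RNA-seq table, 20 for cytosolic enzymes and 16 for mitochondrial enzymes, whose symbols end in 2. All 36 were among the 12711 genes tested, which averaged 10 or more normalized counts.

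The cells came from a line, D42, that had been established from a liver tumor induced with diethylnitrosamine in an Acly f/f mouse, so every genotype carried floxed Acly alleles at the outset. WT cells (line D42V, 4 libraries) kept ACLY and ACSS2 and carried a LentiCRISPR v2 vector without a guide, as a bulk population. ACLY KO cells (D42C4V, 4 libraries) had been treated with adenoviral Cre, were expanded as a clone and received the same empty vector. ACSS2 KO cells (D42 Sg2-3, 3 libraries) were a clone obtained with a guide against Acss2 in WT cells, and DKO1 cells (D42C4 Sg2-2, 3 libraries) were a clone obtained with that guide in the ACLY KO cells. Each knockout genotype was thus represented by 1 clone, and genotype and clone cannot be told apart. Cells were kept in DMEM with 10% calf serum for 24 hours before RNA extraction. The labels do not say that libraries of a genotype came from separate cultures, so p-values measure the spread between libraries, which may be technical.

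Cytosolic synthetases charge the tRNAs read by cytoplasmic ribosomes. Mitochondrial synthetases are also encoded in the nucleus, but they charge the tRNAs of the mitochondrial genome. When charged tRNA runs short, the kinase GCN2 phosphorylates the initiation factor eIF2α, which lowers translation in general and raises translation of the transcription factor ATF4. ATF4, often with a C/EBP partner, binds composite elements in the promoters of genes for amino acid synthesis, amino acid transport and many cytosolic synthetases, and other forms of stress act on the same route through other kinases. For this reason the 20 cytosolic genes were also read as 12 commonly listed as ATF4 targets (Aars, Cars, Eprs, Gars, Iars, Lars, Mars, Nars, Sars, Tars, Wars and Yars) and 8 others (Dars, Farsa, Farsb, Hars, Kars, Qars, Rars and Vars). Gars and Kars each supply the enzyme for both compartments and were kept with the cytosolic genes.

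The core shared by ATF4 and C/EBP composite sites, TGATGNAA read on both strands, was searched in the RefSeq promoter windows of assembly GRCm38.p6, which run from 250 bases before to 50 bases after a gene's start. Windows were matched for 27 of the 36 genes, and no window was used for Cars, Hars, Lars, Nars, Rars, Vars, Wars, Hars2 and Pars2. The letters were found in 5 of 8 ATF4-listed genes with a window (62.5%), Gars, Iars, Tars and Yars among them, in 0 of 5 other cytosolic genes and in 0 of 14 mitochondrial genes. Of all 27025 genes with a window, 4.51% held a match. The promoters of Gars and Tars, whose matches lie before the start, are shown because both mRNAs differed between genotypes in the results that follow. Each stretch is written 5′ to 3′ on the strand of its gene, with the match in capitals. The coordinates are chr6:55037960-55037989 (plus strand) for Gars and chr15:11399659-11399688 (minus strand) for Tars.
Gars: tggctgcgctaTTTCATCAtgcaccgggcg
Tars: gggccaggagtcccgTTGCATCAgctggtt
The matches begin 30 and 15 bases before the start, respectively, and both read TGATGNAA on the opposite strand. The matches of Iars and Yars lay after the start. A match is a description of letters and not a measurement of ATF4 binding.

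In 1 library of each genotype, values fell with transcript length relative to the genotype mean, and these libraries enter several results below. Within a genotype, the deviation of each gene from its genotype mean fell with transcript length in DKO1 replicate 4 (Spearman's rho = -0.70 over 12577 genes, -0.65 over the 36 synthetases), in WT replicate 2 (-0.61 and -0.56), in ACLY KO replicate 4 (-0.59 and -0.47) and in ACSS2 KO replicate 1 (-0.54 and -0.47). The deviations themselves were wider in DKO1 replicate 4 and WT replicate 2, with an SD over all genes tested of 0.489 and 0.358 on the log2 scale, than in ACLY KO replicate 4 (0.208) and ACSS2 KO replicate 1 (0.177). In every other library the deviations rose with length, with rho from 0.05 in WT replicate 1 to 0.67 in DKO1 replicate 1, and 0.61 in DKO1 replicate 3. Deviations from a genotype mean sum to 0, so a trend in 1 library appears reversed in the others. The correlations therefore cannot tell which library of a genotype departs. The values share their library, so the correlations are descriptions. Among the synthetases, Iars, with a transcript of 4426 bases, lay 0.64 below its DKO1 mean on the log2 scale in replicate 4, and Fars2, with 2125 bases, lay 0.64 above it.

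**Figure D1:**
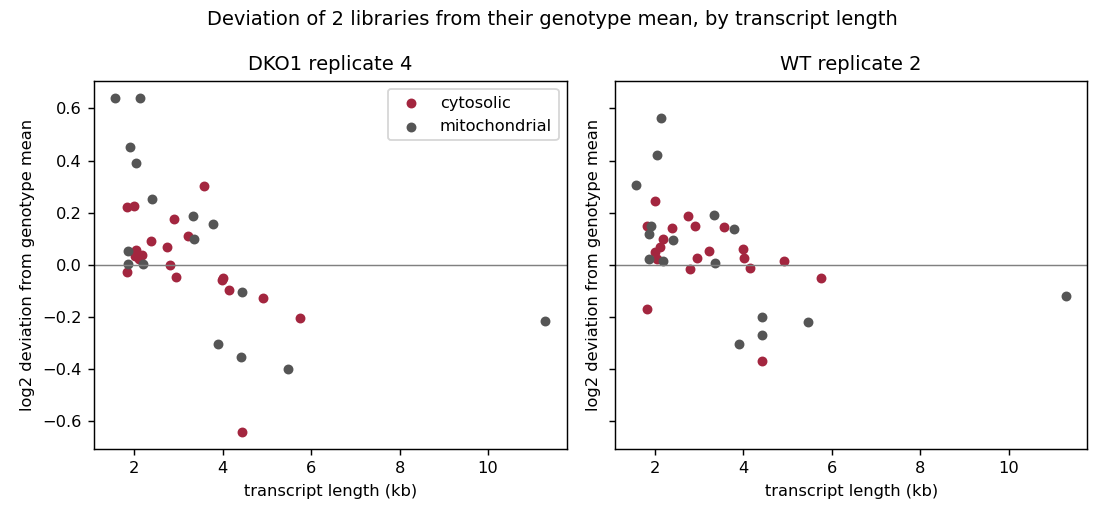
Log2 deviation of each synthetase from its genotype mean (y axis) against transcript length in kb (x axis) in DKO1 replicate 4 (left) and WT replicate 2 (right), with cytosolic genes in red and mitochondrial genes in grey. Short transcripts lay mostly above 0 and long transcripts mostly below it in both libraries.

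The library totals were between 23565707 and 26946164 normalized counts. Acly mRNA averaged 6049.7 normalized counts in WT and 5684 in ACSS2 KO, against 1001 in ACLY KO and 946 in DKO1. Acss2 mRNA averaged 237 in WT and 132 in ACSS2 KO, and 718 in ACLY KO against 535 in DKO1. It was lower in each genotype with the guide than in its parent but higher in DKO1 than in WT, and since a guide need not remove the mRNA, this level does not test the ACSS2 label of DKO1. Of 10 hepatocyte and hepatoma markers, 6 passed the filter on low values. Of these, 1 was higher and 3 were lower than in WT in ACLY KO, 1 and 1 in ACSS2 KO, and 1 and 4 in DKO1. Among all genes tested, 23.8% were higher and 24.7% were lower for ACLY KO against WT. The same shares were 15.1% and 11% for ACSS2 KO, and 27.9% and 28.1% for DKO1. The counts for the other marker lists are read beside these shares too. Krt8 and Krt18 had means of at least 14750 in every genotype, whereas the means of Alb were between 11.3 and 134, those of Ttr between 1.78 and 31.7 and those of Apoa1 below 1. The cholangiocyte keratins Krt7 and Krt19 had means of at least 3993, and all 4 cholangiocyte markers were lower in ACLY KO than in WT, with sums of 21647 to 31968 in WT, 8608 to 9374 in ACLY KO, 18274 to 20515 for ACSS2 KO and 11195 to 18276 for DKO1. The 5 stellate and fibroblast markers summed to 1973 to 2264, 3009 to 3369, 4450 to 5332 and 1376 to 1451 in the same order, with 3 higher and 1 lower in ACLY KO, 3 higher and 0 lower in ACSS2 KO and 3 higher and 1 lower in DKO1 than in WT, and Acta2 was the lower gene in both cases. Leukocyte and endothelial markers summed to at most 130 and 90.6 in any library, with Adgre1 and Stab2 at 0 in every WT library. Of 4 proliferation markers, 2 were lower in ACLY KO and 3 were lower in DKO1 than in WT. The part of these differences in the results on synthetases was not tested.

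Per kb of transcript, every cytosolic synthetase had a higher mean over the 14 libraries than every mitochondrial synthetase. Gars (5221 normalized counts per kb), Nars (4915), Kars (3604) and Sars (3272) led, and Qars (894) had the lowest level among the cytosolic genes. Tars2 (480), Iars2 (474), Yars2 (445) and Cars2 (427) led the mitochondrial genes, and Mars2 (19.6), whose annotated transcript is 11294 bases long, had the lowest level of all. Between enzymes for the same amino acid, the ratio of the cytosolic to the mitochondrial level ran from 2.97 for cysteine to 115 for methionine.

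**Figure D2:**
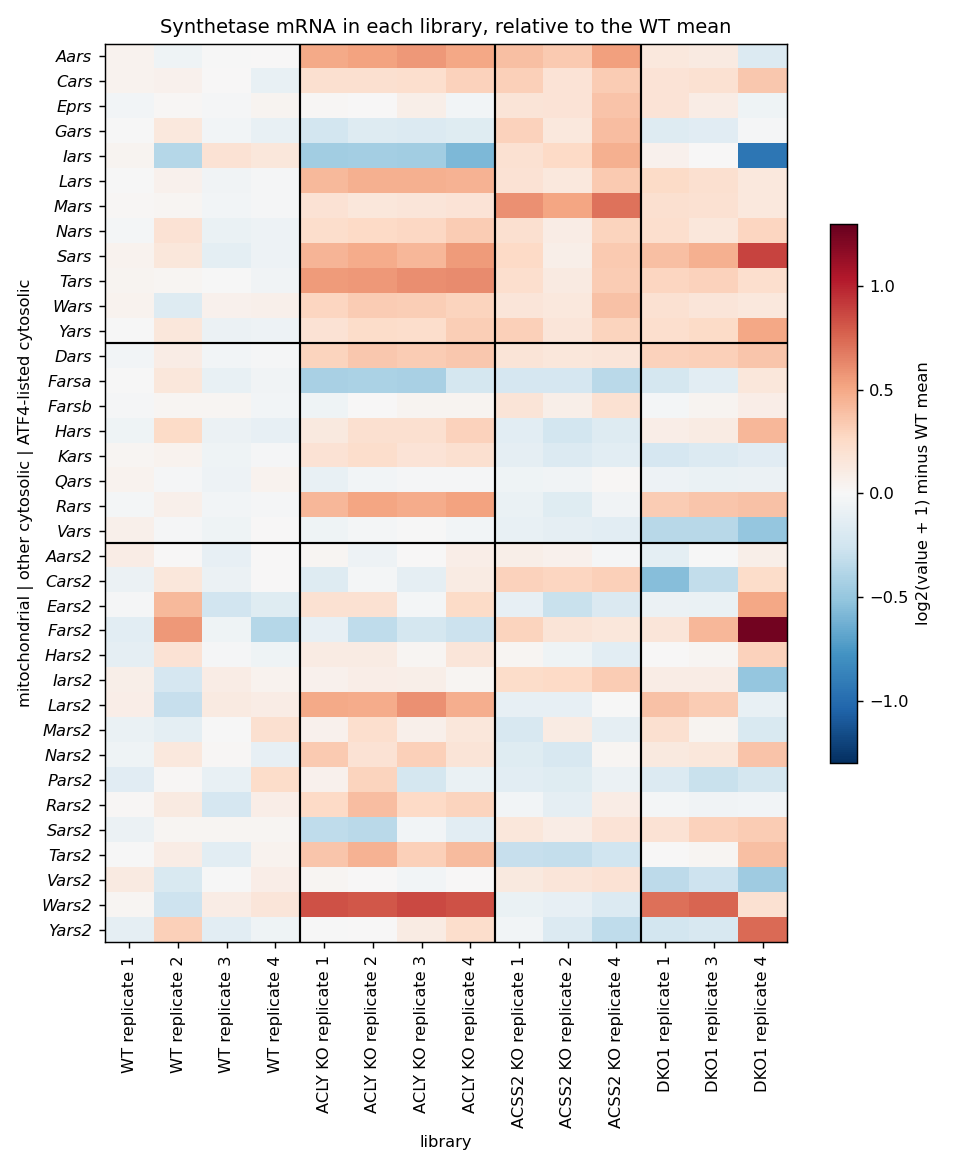
Level of each of the 36 synthetase mRNAs in each of the 14 libraries, as log2(value + 1) minus the mean of the 4 WT libraries (color scale from -1.3 to 1.3), with ATF4-listed cytosolic genes at the top, other cytosolic genes in the middle and mitochondrial genes at the bottom. ACLY KO and ACSS2 KO libraries were mostly above WT among the ATF4-listed genes, and DKO1 replicate 4 departed from the other DKO1 libraries in Iars, Sars, Fars2 and Yars2.

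The summed level of the 20 cytosolic genes was 132609, 135477, 128602 and 129658 normalized counts in the WT libraries, 149357, 152870, 153498 and 154575 in ACLY KO, 149974, 142664 and 159785 in ACSS2 KO and 140938, 140669 and 141003 in DKO1. Every knockout library was above every WT library, and DKO1 lay between WT and ACLY KO. As a share of the library the sum averaged 0.508% in WT, with 0.636% in ACLY KO, 0.627% for ACSS2 KO and 0.571% for DKO1, and DKO1 replicate 4 (0.523%) was close to the highest WT library (0.519%). The 16 mitochondrial genes summed to 10042, 9999, 9835 and 10175 in WT, 11058, 11287, 11036 and 11322 in ACLY KO, 10412, 10280.4 and 10536 in ACSS2 KO and 10033, 10261 and 10628 in DKO1. Only DKO1 overlapped WT here. In bulk RNA, fewer cells with a given mRNA and less of it per cell cannot be told apart.

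Loss of ACLY alone was examined by comparing ACLY KO with WT. Of the 20 cytosolic synthetases, 12 were higher, 2 were lower (Farsa and Gars) and 6 did not pass the test, with a median log2 fold change of 0.22. Of the 16 mitochondrial synthetases, 5 were higher, 1 was lower (Sars2) and 10 did not pass, with a median of 0.093. Among all genes tested, 23.8% were higher and 24.7% were lower, and the median was -0.0067. A gene counts as higher or lower here at an adjusted p under 0.05 from limma. Among the ATF4-listed genes 9 of 12 were higher and 1 was lower, and among the other cytosolic genes 3 of 8 were higher (Dars, Kars and Rars) and 1 was lower.

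Coordinates are those of GENCODE vM21 on GRCm38. Tars, the threonyl-tRNA synthetase (chr15:11382301-11399665), had 7464, 7441, 7257 and 7071 in the WT libraries, 10716, 10799, 11107 and 11152 in ACLY KO, 8481, 7949 and 9175 in ACSS2 KO, and 8849, 9024 and 8485 for DKO1 normalized counts. Every ACLY KO library was above every library of the other genotypes, and the ACLY KO mean was 1.5-fold that of WT (log2 fold change 0.58, SE 0.054, adjusted p = 1.3e-06). Rars, the arginyl-tRNA synthetase (chr11:35808381-35834506), is outside the ATF4 list and had 4942, 5264, 4911 and 4958 in the WT libraries, 6746, 7157, 7008 and 7229.6 in ACLY KO, 4716, 4487 and 4861 in ACSS2 KO, and 6290.1, 6462 and 6513 for DKO1. Both ACLY-deficient genotypes lay above both ACLY-proficient genotypes without overlap, with log2 fold change 0.49, SE 0.049, adjusted p = 2.76e-06 for ACLY KO against WT. Lars, which charges leucine tRNA and also serves as a leucine sensor for mTORC1, had 5387, 5621, 5237 and 5353 in the WT libraries, 7231, 7458, 7455 and 7403 in ACLY KO, 6163, 5947 and 6840.0 in ACSS2 KO, and 6397, 6234 and 5939 for DKO1. ACLY KO again stood above all other libraries (log2 fold change 0.45, SE 0.054, adjusted p = 1.46e-05).

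Aars, the alanyl-tRNA synthetase (chr8:111033144-111057664), had 15163, 14156, 14632 and 14767 in the WT libraries, 20601, 21093, 21753 and 20858 in ACLY KO, 19303, 18634 and 21255 in ACSS2 KO, and 16134, 15907 and 12947 for DKO1. ACLY KO and ACSS2 KO did not overlap WT, while the DKO1 libraries lay on both sides of the WT values, and ACLY KO differed from WT by 1.44-fold (log2 fold change 0.52, SE 0.073, adjusted p = 5.72e-05). Dars, the aspartyl-tRNA synthetase, rose from 4444 ± 208 (SD, n = 4) in WT to 5580 ± 109.9 (SD, n = 4) in ACLY KO (log2 fold change 0.33, SE 0.048, adjusted p = 7.54e-05).

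The other rises were those of Cars, Kars, Mars, Nars, Sars, Wars and Yars, with log2 fold changes between 0.17 for Mars and 0.47 for Sars. Sars, the seryl-tRNA synthetase, had 9599, 10264, 8523 and 8842 in WT and 12578, 12971, 12480.5 and 13610.1 in ACLY KO, with no overlap. Farsa, the catalytic subunit of cytosolic phenylalanyl-tRNA synthetase, fell from 2502 ± 188 (SD, n = 4) to 1936 ± 131 (SD, n = 4), while the mRNA of its partner subunit Farsb averaged 2396 ± 48.3 (SD, n = 4) in WT, against 2406 ± 69.2 (SD, n = 4) in ACLY KO, and did not pass the test. Gars, the glycyl-tRNA synthetase, had 12404, 13726, 12154 and 11654 in WT and 10565, 11106, 11012 and 11156 in ACLY KO (log2 fold change -0.19, adjusted p = 0.0442), and this call was lost under 13 of 24 alternatives, among them leaving out any of the ACLY KO libraries. Iars, the isoleucyl-tRNA synthetase, had 6921, 5228, 7670.0 and 7504 in WT and 4951, 4989.7, 4944 and 4514 in ACLY KO. The groups did not overlap, but the difference did not pass the test (log2 fold change -0.48, adjusted p = 0.0517). WT replicate 2, which had the lowest of the WT values, is among the libraries named above for their length trend.

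**Figure D3:**
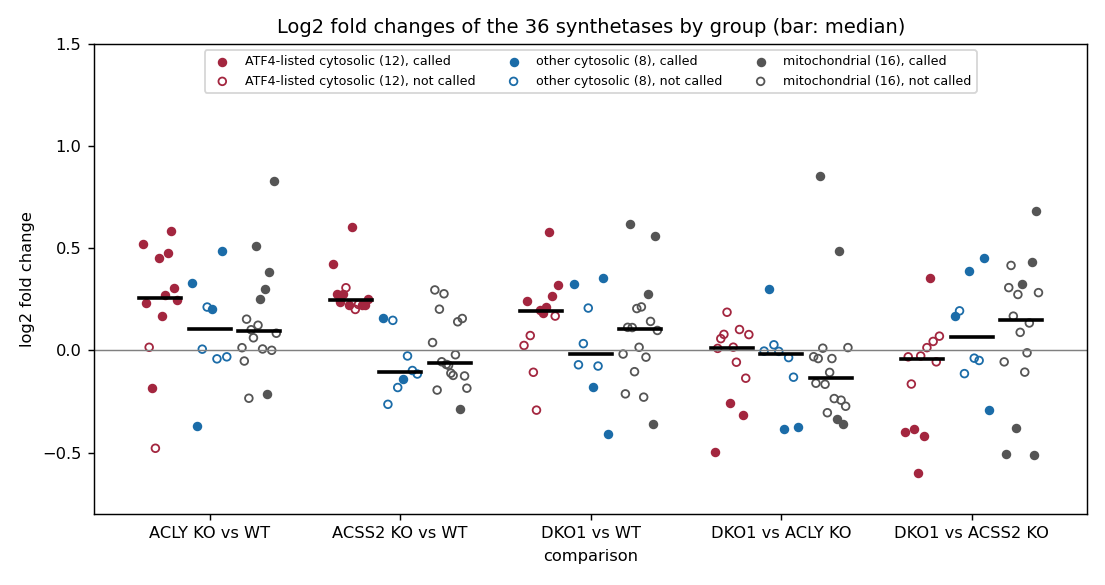
Log2 fold change (y axis) of each synthetase in 5 comparisons (x axis), with ATF4-listed cytosolic genes in red, other cytosolic genes in blue and mitochondrial genes in grey, filled where the adjusted p was under 0.05 and with a black bar at each median. In ACSS2 KO against WT all 12 ATF4-listed genes lay above 0 and the median of the mitochondrial genes was -0.062.

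Loss of ACSS2 alone was read from ACSS2 KO against WT. Of the 20 cytosolic synthetases 10 were higher in ACSS2 KO than in WT and 1 was lower (Kars), whereas among the mitochondrial synthetases 0 of 16 were higher and 1 was lower (Tars2). Among all genes tested 15.1% were higher and 11% were lower. All 12 ATF4-listed genes had positive log2 fold changes, between 0.20 and 0.60 with a median of 0.245, and 9 of them were called. The median of the other cytosolic genes was -0.11, with Dars higher and Kars lower, and that of the mitochondrial genes was -0.062.

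Mars, the methionyl-tRNA synthetase (chr10:127296221-127311786), showed the largest difference, at 5696, 5727, 5501 and 5568 in the WT libraries, 6417, 6223, 6286 and 6345 in ACLY KO, 8458, 8022 and 9180.2 in ACSS2 KO, and 6508, 6469 and 6188 for DKO1. Every ACSS2 KO library was above every other library, and the mean was 1.52-fold that of WT (log2 fold change 0.60, SE 0.055, adjusted p = 5.31e-06). Aars rose 1.34-fold (log2 fold change 0.42, SE 0.079, adjusted p = 0.00145). Cars, the cysteinyl-tRNA synthetase, had 3707, 3728, 3602 and 3356 in the WT libraries, 4166, 4151, 4174 and 4424 in ACLY KO, 4471, 4079.6 and 4513 in ACSS2 KO, and 4068, 4128 and 4590.3 for DKO1, with log2 fold change 0.27, SE 0.065, adjusted p = 0.00671 for ACSS2 KO against WT. The ACSS2 KO libraries were all above the WT libraries, as were those of ACLY KO and DKO1. Lars (log2 fold change 0.22, SE 0.059, adjusted p = 0.0125) and Tars (log2 fold change 0.22, SE 0.058, adjusted p = 0.0126) rose by 1.17-fold each.

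ACSS2 KO replicate 4 had the highest value of its genotype in every ATF4-listed gene other than Yars, and the cytosolic count rests in part on it. Without this library 3 cytosolic genes were called, without WT replicate 1 or ACSS2 KO replicate 1 there were 6, and without DKO1 replicate 4 there were 17, through the shared estimate of the spread. Of the 10 that were higher, Aars, Cars and Mars passed with each library left out in turn, and Lars and Tars missed the threshold without ACSS2 KO replicate 4. The call of Kars, the cytosolic gene that was lower (adjusted p = 0.0494 from limma), was lost under 17 of 24 alternatives, and those of Dars and Wars under 13 each. The median of the 12 ATF4-listed genes stayed between 0.194 and 0.375 under the alternatives, with 3 to 12 genes called higher and 0 called lower.

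In DKO1, which lacks both enzymes, 9 of 20 cytosolic synthetases were higher than in WT and 2 were lower (Kars and Vars), and 3 of 16 mitochondrial synthetases were higher (Fars2, Sars2 and Wars2) and 1 was lower (Vars2). Among all genes tested 27.9% were higher and 28.1% were lower. The medians were 0.18 for cytosolic and 0.105 for mitochondrial genes. Among the ATF4-listed genes 7 of 12 were higher and 0 were lower, and with only the DKO1 and WT libraries in the fit this number was 3.

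Vars, the valyl-tRNA synthetase, had 12558, 11906, 11554 and 12094 in the WT libraries, 11566, 11773, 11951 and 11761 in ACLY KO, 11262, 11119.6 and 10909 in ACSS2 KO, and 9366, 9379 and 8474 for DKO1. All DKO1 libraries were below all other libraries, with a mean 0.754 times that of WT (log2 fold change -0.41, SE 0.055, adjusted p = 3.73e-05). Vars2, its mitochondrial counterpart, had 1001, 804, 923 and 981 in the WT libraries, 939, 926, 903 and 928 in ACLY KO, 1005, 1033 and 1050.1 in ACSS2 KO, and 728, 767 and 669.6 for DKO1, and DKO1 was again below every other library (log2 fold change -0.36, SE 0.077, adjusted p = 0.00152). Both genes lie on chromosome 17, at chr17:35000987-35016322 and chr17:35655634-35667592.

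Rars (log2 fold change 0.36, SE 0.053, adjusted p = 8.3e-05), Dars (log2 fold change 0.33, SE 0.052, adjusted p = 0.000143) and Tars (log2 fold change 0.27, SE 0.058, adjusted p = 0.00174) were higher in DKO1 than in WT. Sars had 12182, 12779.7 and 17058 in DKO1, all above the WT values (log2 fold change 0.58, SE 0.11, adjusted p = 0.000697), and its highest value came from replicate 4. Aars was not among the genes called, at 14996 ± 1778 (SD, n = 3) in DKO1 against 14679 ± 416 (SD, n = 4) in WT, which gave a log2 fold change of 0.024 with a standard error of 0.079.

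Loss of ACSS2 in cells without ACLY was read from DKO1 against ACLY KO. Among the cytosolic genes 1 was higher (Farsa), 5 were lower (Aars, Kars, Lars, Tars and Vars) and 14 did not pass the test, beside 14.3% higher and 13.6% lower among all genes. Among the mitochondrial genes Fars2 and Sars2 were higher and Rars2 and Vars2 were lower. Kars, the lysyl-tRNA synthetase, had 7359, 7493, 6973 and 7185 in the WT libraries, 8274, 8501, 8213 and 8399 in ACLY KO, 6682, 6428 and 6604 in ACSS2 KO, and 6252, 6401 and 6548 for DKO1. ACLY KO was above WT, and both genotypes without ACSS2 were below WT, with log2 fold change -0.38, SE 0.049, adjusted p = 9.55e-05 for DKO1 against ACLY KO. Aars was 0.708 times its ACLY KO level (log2 fold change -0.50, SE 0.079, adjusted p = 0.000518). Tars (log2 fold change -0.32, SE 0.058, adjusted p = 0.00141) and Lars (log2 fold change -0.26, SE 0.059, adjusted p = 0.00607) were lower as well, with no overlap between the genotypes. Vars differed by -0.38 on the log2 scale (SE 0.055, adjusted p = 0.000288).

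Loss of ACLY in cells without ACSS2 was read from DKO1 against ACSS2 KO. Here 4 cytosolic genes were higher (Dars, Hars, Rars and Sars) and 5 were lower (Aars, Gars, Iars, Mars and Vars), beside 25.9% higher and 27.8% lower among all genes. Rars was 1.37-fold higher (log2 fold change 0.45, SE 0.057, adjusted p = 1.78e-05), and Mars was 0.748 times its ACSS2 KO level (log2 fold change -0.42, SE 0.059, adjusted p = 5.39e-05). Gars had 15357, 13659.6 and 16424 in ACSS2 KO and 11129.8, 11291 and 12322 in DKO1, without overlap (log2 fold change -0.38, SE 0.081, adjusted p = 0.00142). Aars (log2 fold change -0.40, SE 0.085, adjusted p = 0.0014) and Vars (log2 fold change -0.29, SE 0.059, adjusted p = 0.00103) were lower in DKO1. Iars had 7762, 8104 and 9274 in ACSS2 KO and 7005, 6784 and 3531 in DKO1, and its call, like those of Sars and Iars2, was lost without DKO1 replicate 4. These comparisons share the DKO1 libraries with each other and with the comparison against WT.

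**Figure D4:**
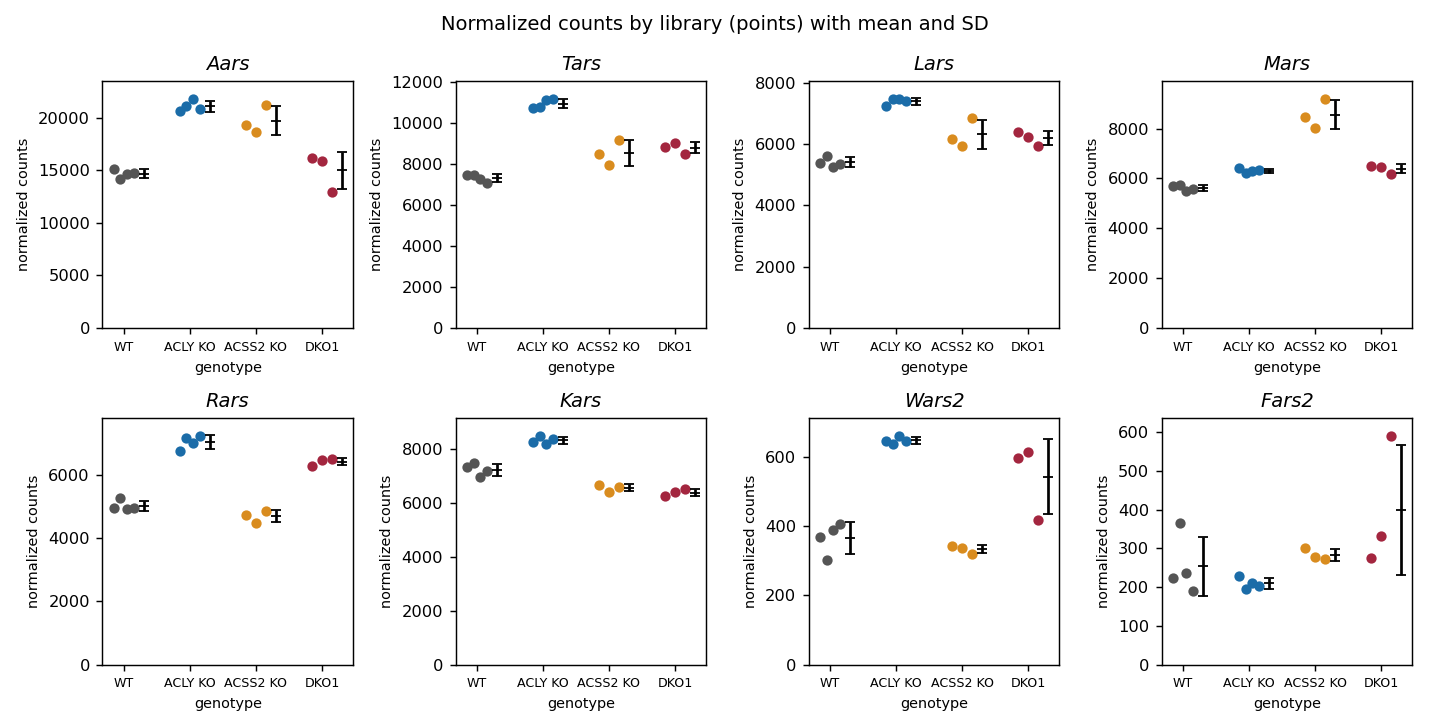
Normalized counts (y axis, from 0) of 8 synthetase mRNAs by genotype (x axis), with a point for each library and a bar at the mean with its SD. ACLY KO stood highest in Tars, Lars and Kars, ACSS2 KO in Mars, and both ACLY-deficient genotypes lay above the others in Rars. Wars2 and Fars2 show 1 DKO1 library, replicate 4, away from the other 2.

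Whether the 2 losses added up was tested with an interaction, the log2 difference of DKO1 from ACLY KO minus that of ACSS2 KO from WT. It is 0 where the effects add, and negative where DKO1 lies below their sum. Each knockout is 1 clone, so differences between clones enter the interaction as well. Among the cytosolic genes 8 were negative (Aars, Cars, Kars, Lars, Mars, Tars, Vars and Wars), 1 was positive (Farsa) and 11 did not pass the test, with a median of -0.19. Among the mitochondrial genes 1 was negative (Vars2) and 0 were positive, with a median of -0.052. Of all genes tested 12% were positive and 15.1% were negative. All 12 ATF4-listed genes had negative estimates, from -0.92 to -0.12 with a median of -0.26, and 6 of them passed the test, against 2 negative and 1 positive of the 8 other cytosolic genes. The call of Cars (adjusted p = 0.0478 from limma) was lost under 13 of 23 alternatives.

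Aars had the largest interaction among the synthetases tested (interaction -0.92, SE 0.11, adjusted p = 5.82e-05). It was higher than in WT in each single knockout, whereas DKO1 lay 0.528 times as high as the sum of the 2 log2 differences gives. Mars (interaction -0.59, SE 0.078, adjusted p = 0.000121), Tars (interaction -0.54, SE 0.082, adjusted p = 0.000364) and Lars (interaction -0.48, SE 0.083, adjusted p = 0.00091) followed. For each of them both single knockouts were higher than WT, while DKO1 did not exceed the higher of the single knockouts. Farsa went the opposite way (interaction 0.56, SE 0.13, adjusted p = 0.00657). It had 2489, 2767, 2331 and 2421 in the WT libraries, 1862, 1879, 1869.6 and 2132 in ACLY KO, 2139, 2141 and 1962 in ACSS2 KO, and 2138, 2271 and 2769 for DKO1, lower in ACLY KO than in WT, and its highest DKO1 value came from replicate 4. In DKO1 Farsa was 0.952 times its WT level and did not pass the test against WT.

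**Figure D5:**
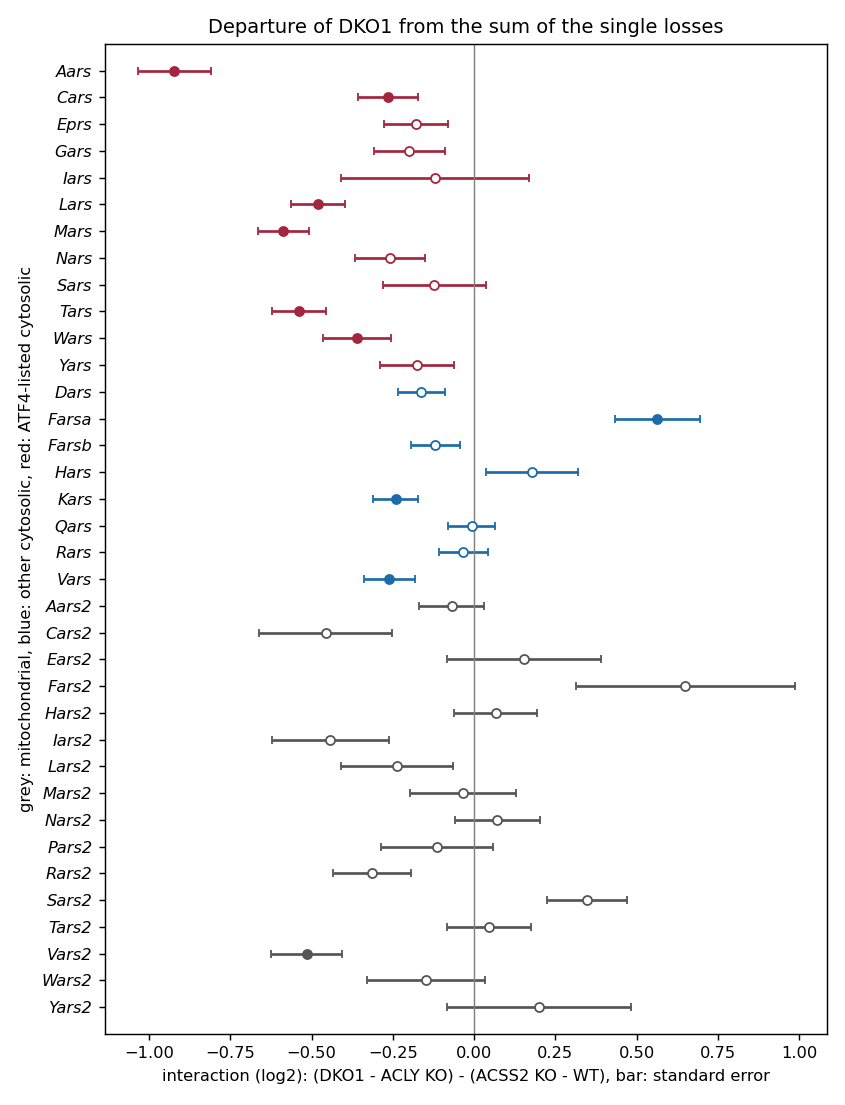
Interaction of each synthetase on the log2 scale (x axis), the departure of DKO1 from the sum of the single losses, with bars for the standard error and filled points where the adjusted p was under 0.05. ATF4-listed genes (red) all lay below 0, while the other cytosolic (blue) and mitochondrial (grey) genes lay on both sides of it.

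Of 16 mitochondrial genes, 5 were higher and 1 was lower in ACLY KO than in WT, beside 23.8% and 24.7% among all genes tested. In ACSS2 KO 0 were higher and 1 was lower (15.1% and 11%), and in DKO1 3 and 1 (27.9% and 28.1%). Wars2, the mitochondrial tryptophanyl-tRNA synthetase (chr3:99141068-99239186), had 369, 301, 388 and 405 in the WT libraries, 646, 638, 661 and 647 in ACLY KO, 343, 336 and 321 in ACSS2 KO, and 597, 615 and 419 for DKO1. ACLY KO was 1.78-fold above WT (log2 fold change 0.83, SE 0.12, adjusted p = 6.47e-05), which was the largest log2 fold change of any synthetase in that comparison. DKO1 was above WT (log2 fold change 0.56, SE 0.13, adjusted p = 0.00239) and above ACSS2 KO (log2 fold change 0.68, SE 0.14, adjusted p = 0.000952), although replicate 4 lay near the highest WT value.

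Tars2, the mitochondrial threonyl-tRNA synthetase, had 1066, 1147, 975 and 1109 in the WT libraries, 1382, 1467, 1331 and 1430.0 in ACLY KO, 873, 867 and 894 in ACSS2 KO, and 1078, 1090.3 and 1409.8 for DKO1. ACLY KO was above WT without overlap (log2 fold change 0.39, SE 0.085, adjusted p = 0.00194) and ACSS2 KO was below WT (log2 fold change -0.29, SE 0.091, adjusted p = 0.0329). The latter call was lost when any of 3 WT or 3 ACSS2 KO libraries was left out, with adjusted p-values up to 0.0978. DKO1 was above ACSS2 KO (log2 fold change 0.43, SE 0.098, adjusted p = 0.0023).

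Lars2, the mitochondrial leucyl-tRNA synthetase, had 636, 485, 652 and 642 in WT and 841, 840.3, 902 and 834 in ACLY KO (log2 fold change 0.51, SE 0.11, adjusted p = 0.00216). Rars2 and Nars2 were also higher in ACLY KO, and Rars2 fell from ACLY KO to DKO1 (log2 fold change -0.34, SE 0.085, adjusted p = 0.0101), where it had 547 ± 5 (SD, n = 3) against 692 ± 33.9 (SD, n = 4). Sars2, the mitochondrial seryl-tRNA synthetase, had 209.7, 224, 225 and 224 in the WT libraries, 175, 173, 215 and 201 in ACLY KO, 245, 235 and 249 in ACSS2 KO, and 252, 272 and 277 for DKO1. DKO1 was above every library of WT and ACLY KO (log2 fold change 0.49, SE 0.086, adjusted p = 0.0011 against ACLY KO, and log2 fold change 0.27, SE 0.086, adjusted p = 0.0161 against WT). Vars2 was lower in DKO1 than either in ACLY KO (log2 fold change -0.36, SE 0.077, adjusted p = 0.00396) or in ACSS2 KO (log2 fold change -0.51, SE 0.082, adjusted p = 0.000159), and it was the mitochondrial gene with an interaction (interaction -0.51, SE 0.11, adjusted p = 0.00359).

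Fars2, the mitochondrial phenylalanyl-tRNA synthetase, was among the genes called higher in DKO1 than in WT and than in ACLY KO. Its values were 224, 364, 236 and 190.2 in the WT libraries, 228, 196, 210.4 and 203 in ACLY KO, 301, 277 and 273 in ACSS2 KO, and 275, 333 and 589.7 for DKO1. The WT and DKO1 groups overlapped, and the highest values of both came from WT replicate 2 and DKO1 replicate 4, where values fell with length. In ACSS2 KO the highest value likewise came from the library with that trend, replicate 1, but in ACLY KO it did not. The call against WT was lost under 15 of 24 alternatives, among them leaving out DKO1 replicate 4. In Cars2, Iars2 and Yars2 the same DKO1 library also stood apart, at 943, 1746 and 1143 against 543 and 639, 2650.2 and 2643, and 579 and 594 in the others. Cars2 and Iars2 were called lower in DKO1 than in ACSS2 KO, and Nars2 was called higher.

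Farsb, Qars, Aars2, Ears2, Hars2, Mars2, Pars2 and Yars2 were called in none of the 6 tests, 5 comparisons and the interaction. This does not show that they were unchanged. Their genotype means ran from 2430.5 to 2565 for Qars, from 2396 to 2654 for Farsb and from 152 to 181 for Pars2. Mars2 (between 207 and 236) and Ears2 (between 269 and 343), which charge methionine and glutamate tRNA in mitochondria, were in this group too. Hars2 ran from 539 to 608 and Aars2 from 498 to 517. Hars and Hars2 overlap at their divergent starts, and whether reads there were assigned by strand is not given in the sources used here. Eprs, the enzyme for glutamate and proline, was called higher in ACSS2 KO alone, at 11082 ± 892 (SD, n = 3) against 9382 ± 192 (SD, n = 4) in WT. Nars (12007 ± 1091 (SD, n = 4) in WT, against 14458 ± 415 (SD, n = 4) in ACLY KO), Wars (2514 ± 192 (SD, n = 4) and 3097 ± 51.8 (SD, n = 4)) and Yars (3413 ± 251 (SD, n = 4) and 4037 ± 155 (SD, n = 4)) were among the ATF4-listed genes that were higher in ACLY KO. Hars, the histidyl-tRNA synthetase, was called in DKO1 against ACSS2 KO, at 3276 ± 462 (SD, n = 3) and 2487 ± 85.4 (SD, n = 3).

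Cytosolic and mitochondrial enzymes for the same amino acid were compared over 17 pairs, counting Farsa and Farsb each with Fars2, and Eprs with both Ears2 and Pars2. In ACLY KO against WT both members were called in the same direction in 5 pairs (Lars, Nars, Rars, Tars and Wars with their mitochondrial forms) and in opposite directions in 1 (Sars higher, Sars2 lower). The Sars2 groups overlapped there, and its call (adjusted p = 0.0414 from limma) was lost under 13 of 24 alternatives. The cytosolic member alone was called in 5 pairs. In ACSS2 KO against WT both were called in the same direction in 0 pairs, 1 pair was opposite (Tars higher, Tars2 lower) and the cytosolic member alone was called in 8, of which Eprs accounts for 2. In DKO1 against WT both were called in the same direction in 2 pairs (Sars and Vars), the cytosolic member alone in 7 and the mitochondrial member alone in 3, of which Fars2 accounts for 2. Vars and Vars2 were both lower in DKO1 in each of its 3 comparisons.

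Of the cytosolic enzymes, 8 belong to the multi-tRNA synthetase complex (Dars, Eprs, Iars, Kars, Lars, Mars, Qars and Rars), a particle held together by scaffold proteins. In ACLY KO against WT 5 of the 8 were higher and 0 were lower, with a median of 0.19, and of the 12 cytosolic genes outside the complex 7 were higher and 2 were lower, with a median of 0.24, beside 23.8% higher and 24.7% lower among all genes. In ACSS2 KO against WT the complex had 4 higher and 1 lower, and the genes outside it 6 higher and 0 lower, beside 15.1% and 11% among all genes. Of the scaffold genes Aimp1, Aimp2 and Eef1e1, Eef1e1 was lower in ACLY KO (log2 fold change -0.72, adjusted p = 0.00534), and Aimp1 was higher in DKO1 than in WT (0.60, adjusted p = 0.0372). Aimp1 had 2560.2, 3648, 2304 and 2253 in WT and 3047, 3286 and 6344 in DKO1, so the groups overlapped, and the highest DKO1 value came from replicate 4. In ACSS2 KO against WT 0 of the 3 were called.

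Other genes of the ATF4 route were read from a list of 35 that holds no synthetase. In ACLY KO against WT 20 were higher and 2 were lower, with a median of 0.33, beside 23.8% and 24.7% among all genes. In ACSS2 KO against WT 26 were higher and 0 were lower, beside 15.1% and 11% among all genes, with a median of 0.82, which was above the median of the ATF4-listed synthetases. Chac1, a glutathione-degrading enzyme (log2 fold change 1.68, adjusted p = 1.33e-08), Stc2, a secreted glycoprotein (2.09, adjusted p = 2.63e-07), Gpt2, a mitochondrial alanine aminotransferase (1.47, adjusted p = 4.2e-07), and Trib3, a pseudokinase that restrains ATF4 (1.98, adjusted p = 6.16e-07), had the smallest adjusted p-values of the list there. In DKO1 against WT 18 were higher and 5 were lower, with a median of 0.40, beside 27.9% and 28.1% among all genes. The interaction was negative in 25 of 35 and positive in 0, beside 15.1% and 12% among all genes, with a median of -0.79, and Slc7a11, the cystine transporter subunit, had -2.30 (adjusted p = 1.72e-06). The list, like the synthetase list, was set down with earlier results of these data known. Atf4 mRNA averaged 13928 in WT, with 16159 in ACLY KO, 16795 for ACSS2 KO and 19022 for DKO1. Its DKO1 libraries had 16381.5, 16963 and 23722, and the highest value came from replicate 4. ATF4 is controlled mainly by translation, which mRNA does not show. Of the 4 eIF2α kinase genes, Eif2ak3, which encodes PERK, was lower than in WT both in ACLY KO (-0.67, adjusted p = 0.000122) and, by a like amount, in DKO1 (-0.65, adjusted p = 0.000279), and Eif2ak2, which encodes PKR, was higher in both. So 1 of 4 was higher and 1 of 4 was lower in each of these comparisons. These counts were near the shares among all genes, 23.8% and 24.7% in ACLY KO and 27.9% and 28.1% in DKO1.

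Partners of the mitochondrial synthetases in mitochondrial translation and tRNA maturation were read from 20 genes. They had 8 higher and 1 lower in ACLY KO against WT, 0 higher and 1 lower in ACSS2 KO against WT, and 9 higher and 1 lower in DKO1 against WT, beside 23.8%, 15.1% and 27.9% higher among all genes. Mtif2, the mitochondrial initiation factor, was higher both in ACLY KO (log2 fold change 0.53, adjusted p = 1.42e-06) and, against the same WT libraries, in DKO1 (0.60, adjusted p = 9.84e-07). Gatb, a subunit of the amidotransferase that makes mitochondrial glutaminyl-tRNA, was higher in ACLY KO (0.59, adjusted p = 0.0011), and Gfm1, a mitochondrial elongation factor, was lower in ACSS2 KO (-0.37, adjusted p = 0.00444) and likewise in DKO1 (-0.46, adjusted p = 0.000361).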

How the data were processed

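RNA-seq was analysed for 14 libraries of mouse HCC cells, 4 WT, 4 ACLY KO, 3 ACSS2 KO and 3 DKO1, grouped by the genotype in the sample labels. The authors prepared directional poly(A) libraries, sequenced single-end reads, mapped them to GRCm38/mm10 with STAR and normalized them with Illumina's DESeq2 software. The deposited values are signal per gene symbol, normalized counts that are not whole numbers, and dividing them back to whole reads failed, so no interval for counting error was computed and depth is known only as the total of normalized counts. How reads were assigned to genes is not given in the sources used here.

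Values were analysed as log2(value + 1) in R 4.3.3 with limma 3.58.1 and an intensity trend. Genes with a mean of at least 10 were tested (12711 of 24972 symbols; 5487 were at 0 in every library), with a coefficient for each genotype, 1 estimate of the spread for all libraries, and Benjamini-Hochberg adjustment over all genes tested. A gene was called at an adjusted p under 0.05. Fold changes are on the log2(value + 1) scale. The members and lists were chosen with earlier results of these data known, so lists are described by counts and medians beside those of all genes. Statistics are given for the called members with the smallest adjusted p in each test, at most 5 cytosolic and 3 mitochondrial, and for at most 4 genes of each other list; Gars, Iars, the DKO1 level of Aars and the adjusted p of Kars, Cars and Sars2 calls that were often lost were added after their values were seen. The position and sequence of 1 promoter match are not reported here. Transcript lengths are those of the principal GENCODE vM21 transcript.

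The procedure was checked on simulated data with known changes. In a simulated DKO1 against WT, 5 of 100 genes with a 1.2-fold change and 48 of 100 with a 1.5-fold change were called. Of 12511 unchanged genes, 3 were called. Far fewer genes changed there than were called in the data, so these rates do not carry over directly. A gene that did not pass the test may still differ. Alternatives were other added constants, filters and scalings, a correction for transcript length within each genotype, fits of 2 genotypes, a replicate block, the study's limits and leaving out each library. Leaving out both WT replicate 2 and DKO1 replicate 4 was chosen after seeing the data.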

Additional observations from a re-analysis of the deposited data

Results flagged for a closer look

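There were 11 values that lay far from the rest of their genotype, with a gap to the nearest library above Dixon's 95% limit for 4 libraries, among 72 groups of 4 libraries examined. Chance flags about 1 in 20 groups that are independent. These groups share their libraries, so that rate is no yardstick for the 11 flags. WT replicate 2 held 6 of the 11. It was high for Dars (4753), Hars (3345), Rars (5264) and Yars2 (847) and low for Wars (2226) and Lars2 (485), and this is the WT library whose deviations fell with transcript length. ACLY KO replicate 4 was high for Cars (4424) and Farsa (2132) and low for Iars (4514), and its deviations also fell with length (Spearman's rho = -0.59 over 12577 genes). The others were Lars2 in ACLY KO replicate 3 (902) and Sars2 in WT replicate 1 (210). The part of transcript length in these values was not tested.

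The difference between genotypes without and with ACSS2 was not the same in cells with and without ACLY for 10 synthetases. They were called by the interaction at an adjusted p under 0.05 from limma. The estimates were negative for Aars (-0.92), Mars (-0.59), Tars (-0.54), Vars2 (-0.51), Lars (-0.48), Wars (-0.36), Cars (-0.27), Vars (-0.26) and Kars (-0.24) and positive for Farsa (0.56), on the log2 scale. Among all genes tested 15.1% were negative and 12% were positive.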

How the results depend on the processing

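With the study's limits (absolute log2 fold change over 1.5 and adjusted p under 0.01) 0 members passed in every comparison and in the interaction, since no synthetase reached that size. The number of cytosolic genes called in ACSS2 KO against WT (11) was the least stable. It was 5 with the replicate number as a block, 17 without WT replicate 2 and DKO1 replicate 4, and 3 to 17 with 1 library left out. The mitochondrial count of that comparison (1) was 2 after quantile normalization, 3 after the transcript length correction, 3 with only the 2 genotypes in the fit, 6 without WT replicate 2 and DKO1 replicate 4, and 0 to 3 with 1 library left out. With only 2 genotypes in the fit, the count in DKO1 against WT was 6 cytosolic genes (11 otherwise) and that in DKO1 against ACSS2 KO 3 mitochondrial genes (6 otherwise). In DKO1 against ACLY KO the mitochondrial count (4) was 8 after the length correction and 8 without WT replicate 2 and DKO1 replicate 4. For the interaction, the cytosolic count (9) was 14 with equal library totals and 15 without those 2 libraries, and the mitochondrial count (1) was 3 with equal totals, 2 after quantile normalization, 4 after the length correction, 4 without those 2 libraries and 1 to 3 with 1 library left out. Fewer libraries or genes in a fit change the shared spread, and otherwise the cause was not tested.

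No called member changed sign under any alternative, but for some alternatives a change was not possible. Genotype means, and so fold changes, stay the same under other filters and with only the compared genotypes in the fit. The same holds when a library of an uninvolved genotype is left out. Unchanged signs under these alternatives are therefore no test of direction. The length correction fitted each library's deviation from its genotype mean, so a length trend shared by all libraries of a genotype was not fitted. Calls and signs kept under it are no test of such a trend. Libraries were corrected in turn, so genotype means could move with their order. The correction left the median of all genes in ACLY KO against WT at -0.00705, beside -0.00673 without it. Whether it could turn a sign was not tested. Of 1050 alternative values for the 44 statistics of named members, 1040 stayed on their side of the threshold and 10 did not pass it, namely Tars2 in 7, Lars and Tars in 1 each (all in ACSS2 KO against WT), and Sars2 in DKO1 against WT after quantile normalization (adjusted p = 0.124). Equal library totals moved the median of all genes to 0.104 in ACLY KO and 0.107 in ACSS2 KO against WT and to -0.16 in the interaction, and changes under that scaling are relative to these. Whether replicate numbers pair the libraries is not said in the labels, and correlations do not decide it, since the length trends enter them. Of 18 correlations between deviations of libraries with the same number, 5 were over 0.1, with a range from -0.43 to 0.45, against -0.50 to 0.62 for the 55 other pairs.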

Other observations

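Genes for proofreading and related steps of tRNA charging were read from 6 genes. In ACLY KO against WT 3 were higher and 0 were lower, in DKO1 against WT 4 were higher and 0 were lower, and in ACSS2 KO against WT 0 were called, beside 23.8%, 27.9% and 15.1% higher among all genes tested. Dtd1, a deacylase that clears D-amino acids from tRNA, was higher in ACLY KO (log2 fold change 0.61, adjusted p = 0.00501) and also in DKO1 (1.09, adjusted p = 0.000107). Ankrd16, a partner of Aars in preventing mischarging, was also higher in both (0.33, adjusted p = 0.0116, and 0.77, adjusted p = 3.72e-05). Tarsl2, a further threonyl-tRNA synthetase, followed the same pattern (0.40, adjusted p = 0.00345, and 0.42, adjusted p = 0.00338). Of 6 cytosolic elongation factor genes 0 were higher in any comparison, beside 14.3% to 27.9% among all genes. In ACLY KO against WT 1 was lower, Eef1g (-0.71, adjusted p = 5.95e-05). In DKO1 against WT 2 were lower, Eef1g (-0.89, adjusted p = 1.56e-05) and Eef2 (-0.28, adjusted p = 0.0271), whose groups overlapped. The shares lower among all genes were 24.7% and 28.1%.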
